A study of Mus musculus with 12 samples.

Results

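The proteasome is the multisubunit protease that degrades proteins tagged with ubiquitin. Described here are 50 of the 34745 genes in the deposited table, chosen by name. They are the genes whose names begin with Psma to Psmg and a number, as 54 names do, after 4 pseudogene names ending in -ps were left out. Subunits with other names, such as the lid subunit Shfm1, are not among them. Of the 50, 48 encode subunits, assembly chaperones or regulators. The other 2 share only the name, namely Psmc3ip, a meiotic recombination factor, and Psme2b, an intronless copy of Psme2. Total RNA of the bone marrow cells of the femur was sequenced from 12 male mice of the outbred ICR strain, in 4 groups of 3 animals, to study how the granule Qi Jing Sheng Bai (QJSB), a formula of herbal extracts, acts in leucopenia. The normal group was given saline. Mice of the model, QJSB and leucogen groups were injected on days 5 to 7 of a treatment week with 80 mg/kg per day cyclophosphamide, which alkylates DNA and kills cells that divide. Beside it, QJSB granule was given at 3 g/kg daily to the QJSB group, and leucogen, which is used clinically to raise leucocyte numbers, at 20 mg/kg daily to the leucogen group. No group had a drug without cyclophosphamide, so both drugs are seen only on top of it. The age of the mice is not given in the sources used here. Among the column headings of the table only Model is a name the labels use, so the normal and leucogen libraries were assigned from the meaning of Blank and Positive, and the QJSB libraries, headed Stilbene, by elimination.

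As background, the barrel of the 20S core is built of alpha rings that gate it and beta rings that hold the active sites. Psmb6, Psmb7 and Psmb5 encode the constitutive catalytic subunits β1, β2 and β5, and in immune cells and under interferon the subunits encoded by Psmb9, Psmb10 and Psmb8 (β1i, β2i and β5i) take their places, which changes the peptides cut for presentation on MHC class I. The 19S cap, made of ATPases and non-ATPase subunits, unfolds tagged proteins, and the PA28 activators open the core without ubiquitin. Haematopoietic cells carry much immunoproteasome, and haematopoietic tumours are treated with inhibitors of these sites.

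Library totals ran from 11172547 to 18545198 counts. In normal marrow, markers of each lineage looked for had counts, which does not by itself show that no cell type was removed. Marker levels of several cell types moved with the groups. The summed level of 5 promyelocyte genes, such as Mpo and Elane, was 740.4 to 951 CPM (counts scaled to a common library size with TMM factors) in the normal group, 6596 to 9483 in the model group, 8134 to 8974 in the QJSB group and 3451 to 4564 in the leucogen group. That of 10 late neutrophil genes was 19241 to 22810.0, 4785 to 19819, 7282 to 37452 and 48782 to 58457 CPM, with model replicate 1 and QJSB replicate 1 the lowest. Compared with the normal group, the model group had lower levels of 10 of 10 erythroid and 10 of 10 mature B cell genes. Lower too were 5 of 7 pre-B genes, 7 of 8 T and NK genes and 3 of 4 eosinophil genes. So were 3 of 5 dendritic cell genes and 5 of 10 proliferation genes. Of all 14752 genes tested, 21.9% were lower and 19.7% higher. In the T and NK list and in the dendritic cell list, 1 gene each was higher. The summed level of the T and NK genes was 103 to 130 CPM in model and 71.2 to 89.9 in normal libraries. That of the dendritic cell genes was 105 to 215 and 113 to 146 CPM. Of the monocyte and macrophage genes 4 were higher and 3 lower of 8. The only defining markers with no count in a whole group were Fcer2a and Vpreb3 in the QJSB group and Cr2 and Vpreb3 in the leucogen group. The part of these shifts in the proteasome values was not tested, and in bulk RNA fewer cells of a type and less RNA per cell cannot be told apart.

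Many proteasome transcripts were higher after cyclophosphamide, with or without QJSB, and many were lower where leucogen was added. The 50 genes together took 0.320, 0.326 and 0.309% of the counts of the normal libraries, 0.389, 0.377 and 0.359% in the model group, 0.390, 0.307 and 0.283% in the QJSB group and 0.246, 0.250 and 0.242% in the leucogen group. All leucogen libraries lay below, and all model libraries above, the normal libraries, while the QJSB libraries spread from below normal to the level of the model. A filter on low counts was passed by 49 of the 50, the exception being Psmb11, the thymus subunit β5t, which had 1 count in model replicate 3 and 0 in the other libraries, each of which allows up to 3 counts. A gene was called when the Benjamini-Hochberg adjusted p of edgeR's quasi-likelihood test over all genes was under 0.05, and fold changes are log2 values of CPM with their standard errors, n = 3 against 3. The comparisons share groups, so their counts are not independent of each other.

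Between the model and normal groups, 20 of 49 members rose and 3 fell. These are 40.8% and 6.12% of the members, against 19.7% of all 14752 genes tested that rose and 21.9% that fell. The median log2 fold change of the members was 0.38, beside 0.02 over all genes tested. With any 1 normal library left out, between 12 and 13 members rose. Over all genes 1834 to 2008 rose in these fits, beside 2913 with all libraries.

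Leucogen-treated marrow showed the opposite sign against the model group, with 0 of 49 higher and 24 lower, or 49.0%, where 13.8% of all 14184 genes tested were higher and 13.3% lower. The median of the members was -0.49 and that of all genes -0.05. No member was higher at an adjusted p under 0.05 by DESeq2 or limma either, and 0 were higher at an unadjusted p under 0.05 by edgeR. As few as 14 were lower without leucogen replicate 1 and 13 without leucogen replicate 3. Over all genes, 668 of 14611 and 496 of 14680 were lower in these 2 fits, beside 1886 of 14184 with all libraries. Compared with the normal group, 3 members were higher and 23 lower in the leucogen group (backgrounds of 25.7% and 26.6% of 14637 genes). The lower count became 13 without normal replicate 1 (all genes 3410 of 15012) and 14 without leucogen replicate 1 (3731 of 14967).

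Between QJSB and model no member was called, and no gene of the 14486 tested was (0% in each direction). With the replicate number as a block, edgeR called 14 genes higher and 4 lower, though no label pairs the animals by this number. DESeq2 called 4 and 4, and without QJSB replicate 1 edgeR called 2 and 1. No member was among any of these genes. At an unadjusted p under 0.05 edgeR had 5 of 49 members, all lower with QJSB, DESeq2 had 3 of 50 and limma on FPKM 6 of 49. Over all genes these were 723 of 14486, 907 of 21744 and 835 of 15996. None of these members was past an adjusted p of 0.05. The smallest adjusted p of a member was 0.767 (edgeR), 0.481 (DESeq2) and 0.778 (limma). QJSB against normal gave 19 higher and 5 lower, with backgrounds of 22.1% and 23.2% of 14817 genes. Without any 1 normal library between 9 and 11 were higher, and 3 were lower without normal replicate 1. Over all genes these were 2153 to 2372 higher and 2678 lower, beside 3279 and 3436 with all libraries. The drugs set directly against each other, QJSB against leucogen, differed in 22 members that were higher with QJSB (44.9%) and 2 that were lower (4.08%), while 15.5% and 13.8% of 14266 genes were. The higher count was 13 without leucogen replicate 1 (all genes 1100 of 14684) and 11 without leucogen replicate 3 (769 of 14773). The lower count was 0 to 1 with any 1 leucogen library left out (all genes 776 to 1373). It was 1 without QJSB replicate 3 (all genes 1576 of 14528).

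**Figure D1:**
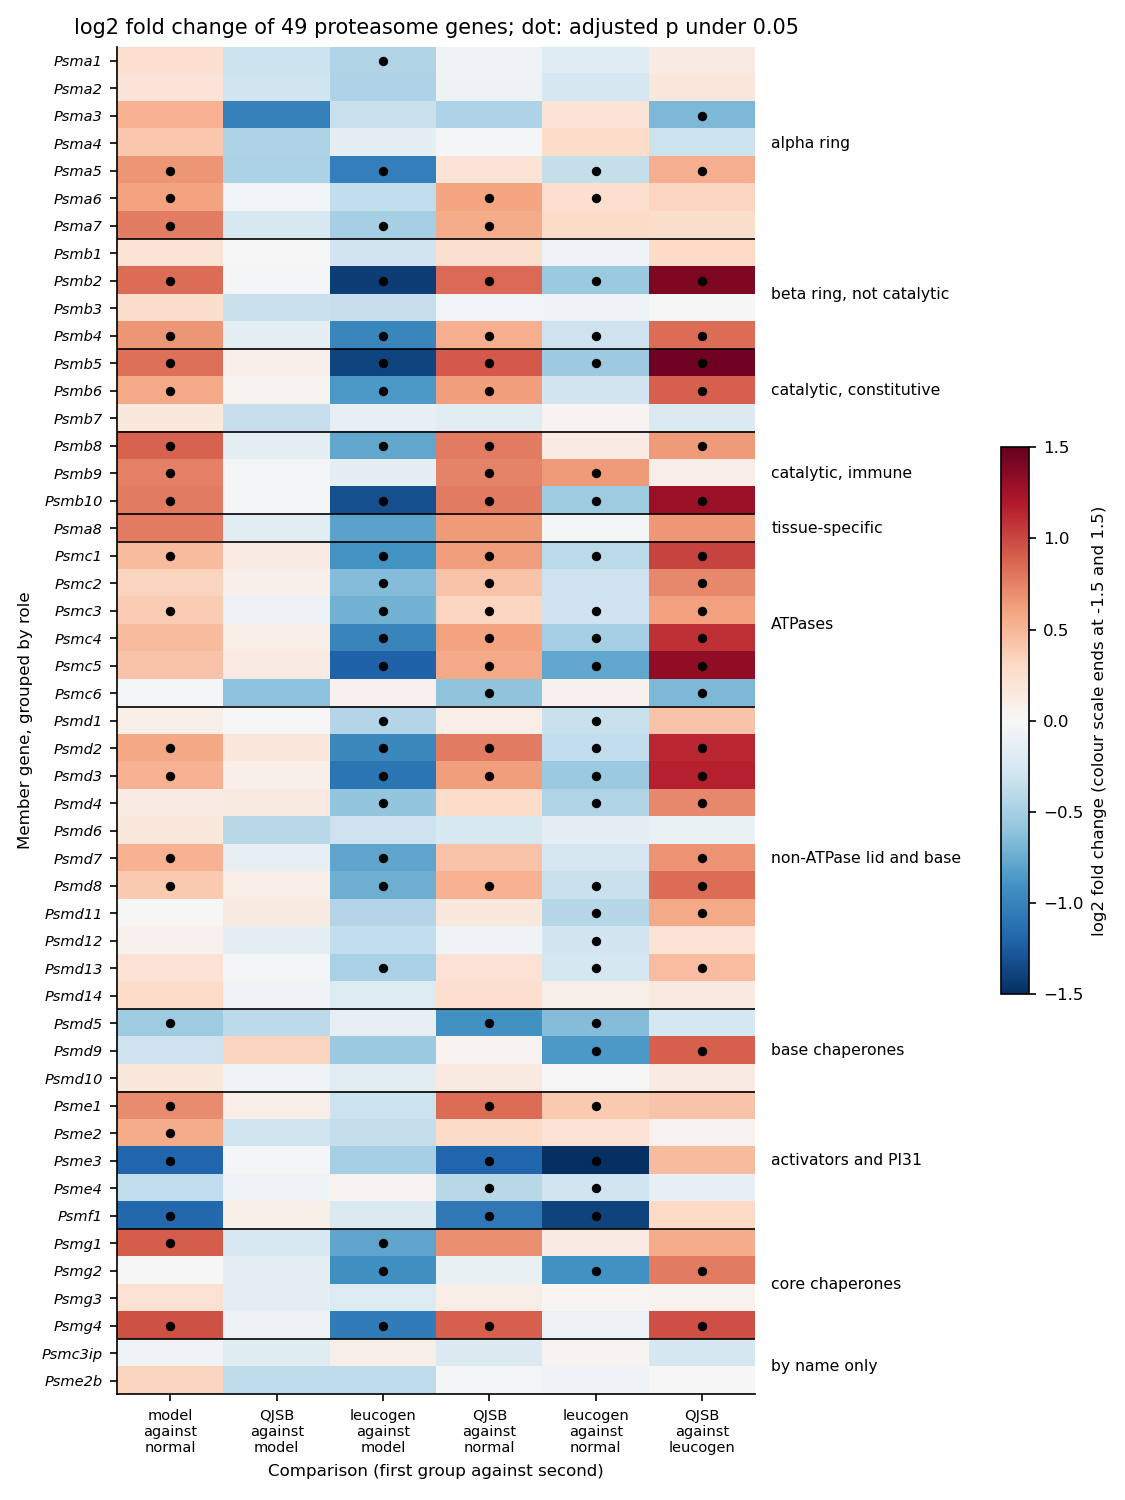
Log2 fold change of the 49 tested members (rows, grouped by role) in the 6 comparisons (columns), red where the first group was higher and blue where it was lower, with a black dot at an adjusted p under 0.05 (edgeR). The column of QJSB against model has no dot, the column of leucogen against model has 24 dots, all blue, and 5 of the 6 ATPases are dotted there, Psmc6 being the exception.

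The members called in leucogen against model had a median GC content of 52.1% in their transcripts and the others 47.1%, and those that rose in model against normal 52.6% against 47.0% of those not called. Over the 49 members, the GC content of the transcripts and the log2 fold change had a Pearson r of -0.51 (Spearman -0.50) for leucogen against model, 0.37 (0.53) for model against normal and 0.57 (0.54) for QJSB against leucogen, as a description over genes of the same libraries. With a trend on GC content taken out of each library, 21 members rose in model against normal (all genes 2896 of 14752). In leucogen against model 25 fell (all genes 1610 of 14184). QJSB against leucogen then had 15 higher and 0 lower, where 1083 and 992 of 14266 genes were. QJSB against normal had 12 higher and 3 lower, where 2744 and 3175 of 14817 genes were.

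Among the catalytic subunits, Psmb5 (β5, the chymotrypsin-like site that clinical proteasome inhibitors block) lies at chr14:54614120-54617995 (mm10), Psmb6 (β1, caspase-like) at chr11:70525367-70527858 and Psmb7 (β2, trypsin-like) at chr2:38588036-38644087. The immune genes Psmb8 and Psmb9 are neighbours in the MHC region, at chr17:34197721-34201454 and chr17:34181988-34187764, and Psmb10 lies at chr8:105935728-105938392. These 6 genes supply the exchangeable active sites. Stretches before the start of 3 of them are shown, those where a motif known to act on genes of their set was found. Nfe2l1 binds the antioxidant response element (ARE) of subunit genes when proteasome activity falls short, and GAS elements are sites through which interferon acts on its target genes. The promoter table of RefSeq (GRCm38.p6, 250 bases before and 50 after a start) held 42 of the 50 members. The stretches printed hold the motif and up to 10 bases on either side. An ARE core, TGACNNNGC, stands in Psmb5 within chr14:54618024-54618052 (minus strand), 47 to 39 bases before the start, and in Psmb6 within chr11:70525338-70525356 (plus strand), directly before the start. A GAS core, TTCNNNGAA, was 97 to 89 bases before the start of Psmb8 within chr17:34198088-34198116 (plus strand), inside the wider bounds that the deposited table gives this gene. Capitals mark the motif, and each line reads 5′ to 3′ on the strand of the gene.
Psmb5: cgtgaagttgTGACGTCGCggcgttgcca
Psmb6: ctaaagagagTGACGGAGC
Psmb8: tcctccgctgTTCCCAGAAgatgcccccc

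For 3 of 4 motifs the shares of promoters with a match were close in members and in all genes. On either strand, the ARE core was in 13.3% of the 45 promoters of members and in 12.4% of all 32851 promoters of the same length, the GAS core in 6.67% and 8.30%, and the CCAAT box in 33.3% and 37.4%. A core of the interferon-stimulated response element, GAAANNGAA, was in 15.6% and 8.56%, in the promoters of Psmb3, Psmb4, Psmc2, Psmd4, Psmd9, Psme1 and Psmg4. Among the catalytic genes, the ARE core was found for Psmb5 and Psmb6 and the GAS core for Psmb8 alone. The core of the interferon-stimulated response element was found for none of them. No match to any motif was found for Psmb7 or Psmb10, and members missing from the promoter table could not be searched. Outside the catalytic genes, the GAS core was in the promoters of Psmd2 and Psmg1. Motifs were counted separately, overlaps included. A match is a description of the letters and no evidence that a factor binds there.

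Psmb5 had 6.38, 6.52 and 5.59 CPM in the normal libraries, 10.9, 9.65 and 12.1 in the model group, 11.8, 11.4 and 11.6 in the QJSB group and 3.81, 4.79 and 3.84 in the leucogen group. The model and QJSB libraries were all above the normal ones and the leucogen libraries all below them. The log2 fold change was 0.82 ± 0.19 in model against normal (adjusted p = 0.00847), -1.38 ± 0.22 in leucogen against model (adjusted p = 0.00434) and 1.46 ± 0.20 in QJSB against leucogen (adjusted p = 0.00328), a 2.75-fold difference between the drugs. Pseudogene copies of Psmb5, Psmb6 and Psmb7 had 0 to 6 counts in any library. The leucogen level of Psmb5 rests on 40 to 66 counts per leucogen library and the fall against normal (-0.55 ± 0.20, adjusted p = 0.0413) had an adjusted p of 0.00427 to 0.122 over the alternatives.

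Psmb6 showed 48.0, 44.9 and 45.5 CPM in normal, 66.2, 63.5 and 74.2 in model, 75.2, 72.5 and 63.7 in QJSB and 30.4, 40.8 and 40.3 in leucogen libraries. The 4 groups kept the same order as for Psmb5, with no leucogen library reaching the lowest normal one. Its change was 0.56 ± 0.12 in model against normal (adjusted p = 0.00672) and -0.86 ± 0.16 in leucogen against model (adjusted p = 0.00708).

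Psmb7 stood apart from both. It had 80.7, 72.8 and 67.0 CPM in normal, 82.8, 92.0 and 70.2 in model, 68.7, 66.0 and 60.7 in QJSB and 71.4, 74.5 and 77.9 in leucogen marrow, so the normal, model and leucogen libraries overlapped and the QJSB libraries were all below the leucogen and model ones. None of the comparisons passed the test, and the value was 0.16 ± 0.15 in model against normal (adjusted p = 0.417) and -0.12 ± 0.15 in leucogen against model (adjusted p = 0.552). With the GC trend removed, these were 0.31 (adjusted p = 0.0484) and -0.40 (adjusted p = 0.0279).

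Of the immune subunits, Psmb8 (β5i) had 41.2, 34.0 and 41.9 CPM in normal, 71.3, 70.4 and 74.7 in model, 63.7, 81.1 and 54.3 in QJSB and 45.8, 44.7 and 35.2 in leucogen libraries. The model group and the QJSB group lay above the other groups without overlap, and the leucogen libraries overlapped the normal ones. Psmb8 rose by 0.89 ± 0.13 in model against normal (adjusted p = 0.00102) and changed by -0.78 ± 0.15 in leucogen against model (adjusted p = 0.00741). Against leucogen it was higher with QJSB by 0.64 ± 0.18 (adjusted p = 0.0274, over the alternatives 0.00853 to 0.177).

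Psmb9 (β1i) behaved differently under leucogen. Its levels were 16.5, 15.1 and 16.6 CPM in normal, 25.7, 26.5 and 29.0 in model, 21.4, 34.7 and 24.1 in QJSB and 26.8, 24.4 and 22.5 in leucogen marrow, so that every library of the 3 cyclophosphamide groups was above every normal library. It rose by 0.76 ± 0.14 in model (adjusted p = 0.00327), by 0.75 ± 0.20 in QJSB (adjusted p = 0.0178, over the alternatives 0.00307 to 0.0761) and by 0.63 ± 0.12 in leucogen (adjusted p = 0.00185), each against normal. In leucogen against model its value was -0.13 ± 0.15 (adjusted p = 0.527).

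Psmb10 (β2i) had 14.1, 11.0 and 13.3 CPM in normal, 24.5, 17.4 and 23.8 in model, 25.7, 20.3 and 18.9 in QJSB and 9.93, 7.98 and 8.26 in leucogen libraries. All leucogen libraries were below all normal ones, which in turn were below all model and QJSB ones. The gene rose by 0.78 ± 0.19 in model against normal (adjusted p = 0.0113, 0.0573 without normal replicate 2), differed by -1.32 ± 0.20 in leucogen against model (adjusted p = 0.00385) and by -0.53 ± 0.17 in leucogen against normal (adjusted p = 0.0245, over the alternatives 0.0126 to 0.0911). With QJSB it was 2.45-fold the leucogen level (log2 1.29 ± 0.19, adjusted p = 0.00380).

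**Figure D2:**
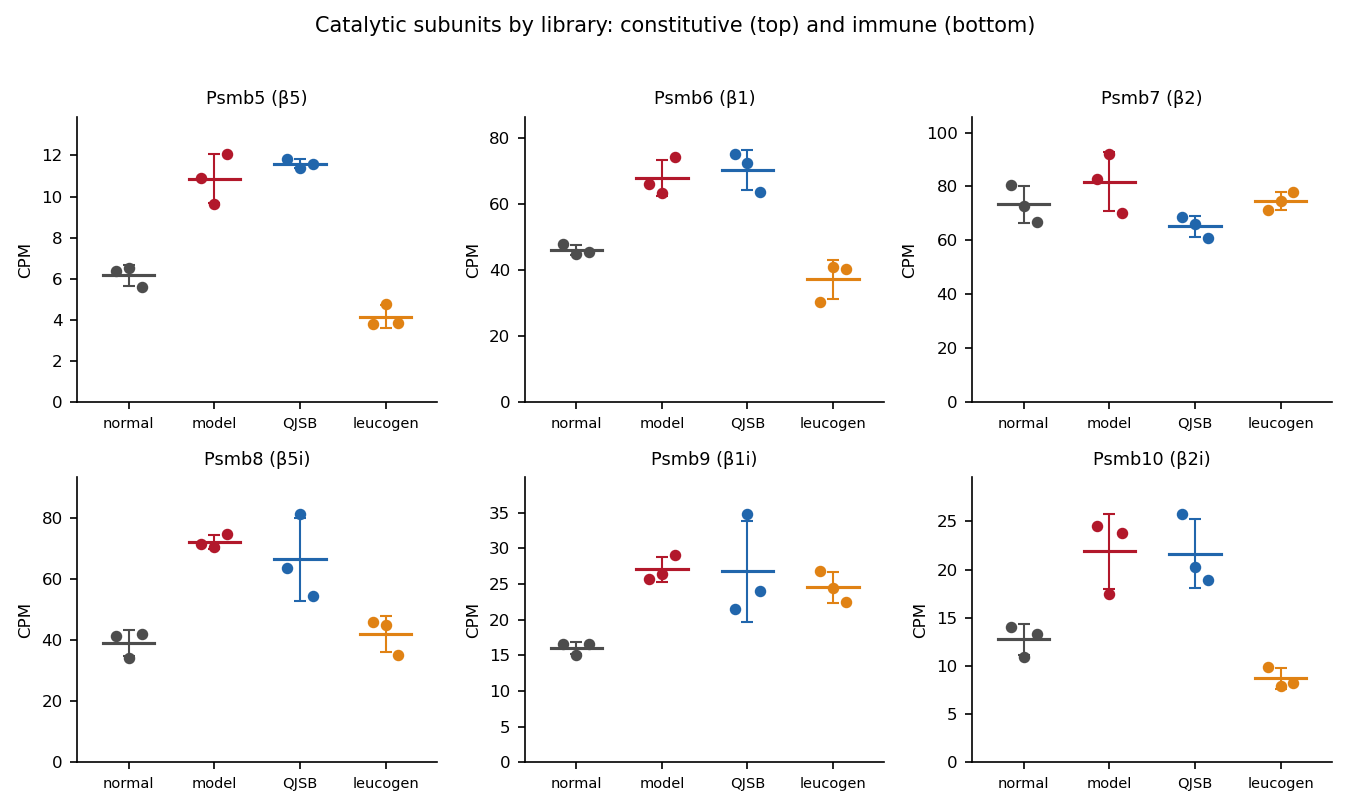
CPM of the constitutive (top) and immune (bottom) catalytic subunits in each library (points), with the group mean (line) and SD (bar), n = 3. The leucogen points lie lowest for Psmb5, Psmb6 and Psmb10, and above the normal points for Psmb9.

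QJSB against model, the comparison of the granule with its own control, had values within 0.14 of 0 for 5 of these 6 genes: 0.08 ± 0.20 for Psmb5, 0.04 ± 0.15 for Psmb6, -0.14 ± 0.18 for Psmb8, -0.03 ± 0.21 for Psmb9 and -0.03 ± 0.21 for Psmb10. Psmb7 was at -0.34 ± 0.16. The adjusted p-values lay between 0.767 (Psmb7) and 0.979 (Psmb10), and the standard errors of 0.15 to 0.21 leave room for changes of that size in either direction.

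Whether immune subunits moved against constitutive ones was asked within each library, where scaling has no part. The mean log2 CPM of the 3 immune genes minus that of the 3 constitutive genes was -0.46, -0.64 and -0.30 in the normal libraries, -0.14, -0.27 and -0.10 in model, -0.27, 0.02 and -0.29 in QJSB and 0.18, -0.25 and -0.30 in leucogen. The model and QJSB libraries were all above the normal ones, by 0.30 and 0.29 between group means. Leucogen was 0.34 above normal between group means, but its replicate 3 was just below the highest normal library. Leucogen replicate 1 was above every other library. Differences between the cyclophosphamide groups, -0.01 for QJSB against model and 0.04 for leucogen against model, were within the spread of the libraries. A score over chosen genes gets no p here.

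That average hid opposite movements of the gene pairs under leucogen. Psmb8 minus Psmb5, the β5 pair, was 2.67, 2.36 and 2.88 in normal, 2.69, 2.85 and 2.62 in model, 2.42, 2.81 and 2.22 in QJSB and 3.54, 3.19 and 3.15 in leucogen libraries. Psmb9 minus Psmb6, the β1 pair, was -1.53, -1.56 and -1.45, -1.36, -1.26 and -1.35, -1.80, -1.06 and -1.40 and -0.18, -0.74 and -0.84 in the same order. In both pairs every leucogen library was above every other library, with differences of group means against the model of 0.57 and 0.73. Psmb10 minus Psmb7, the β2 pair, went the other way, with -2.51, -2.71 and -2.32 in normal, -1.75, -2.39 and -1.56 in model, -1.41, -1.69 and -1.67 in QJSB and -2.83, -3.20 and -3.22 in leucogen. There every leucogen library was below every other library, by -1.18 against the model. The QJSB libraries were all above the normal ones in this pair, by 0.92, whereas in the β5 and β1 pairs they overlapped them. Neither the mean nor the pairs were computed with the GC trend removed. G and C are 56.5% of the Psmb10 transcript and 40.8% of that of Psmb7. Without the trend, Psmb7 changed by -0.40 in leucogen against model. In QJSB against normal Psmb7 was then at 0.18 and Psmb10 at 0.48.

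Per transcript length, the immune genes made up 35.0, 31.9 and 37.6% of the summed FPKM (fragments scaled to transcript length and library size) of the 6 genes in normal libraries, 42.3, 38.7 and 42.7% in model, 41.3, 43.6 and 39.2% in QJSB and 41.2, 35.5 and 32.9% in leucogen. Again the model and QJSB libraries exceeded all normal ones, and the leucogen libraries overlapped both. The lengths that the deposited FPKM imply are long, 6303 bases for Psmb9 where the principal GENCODE transcript has 1352, and 871 against 899 for Psmb5. With CPM per kilobase of the principal transcript, an alternative chosen after seeing the data, the immune share was 24.3 to 28.5% in normal, 31.0 to 33.9% in model, 30.9 to 36.2% in QJSB and 26.8 to 34.8% in leucogen, so the level of the share depends on the length taken while its order over the groups was kept. By this measure Psmb7 and Psmb6 were the largest of the 6 in normal marrow (34.2 to 37.6% and 32.5 to 33.7%), Psmb8 followed (12.5 to 15.2%), and Psmb9 (6.61 to 7.24%), Psmb10 (5.03 to 6.01%) and Psmb5 (3.68 to 4.35%) were lower.

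**Figure D3:**
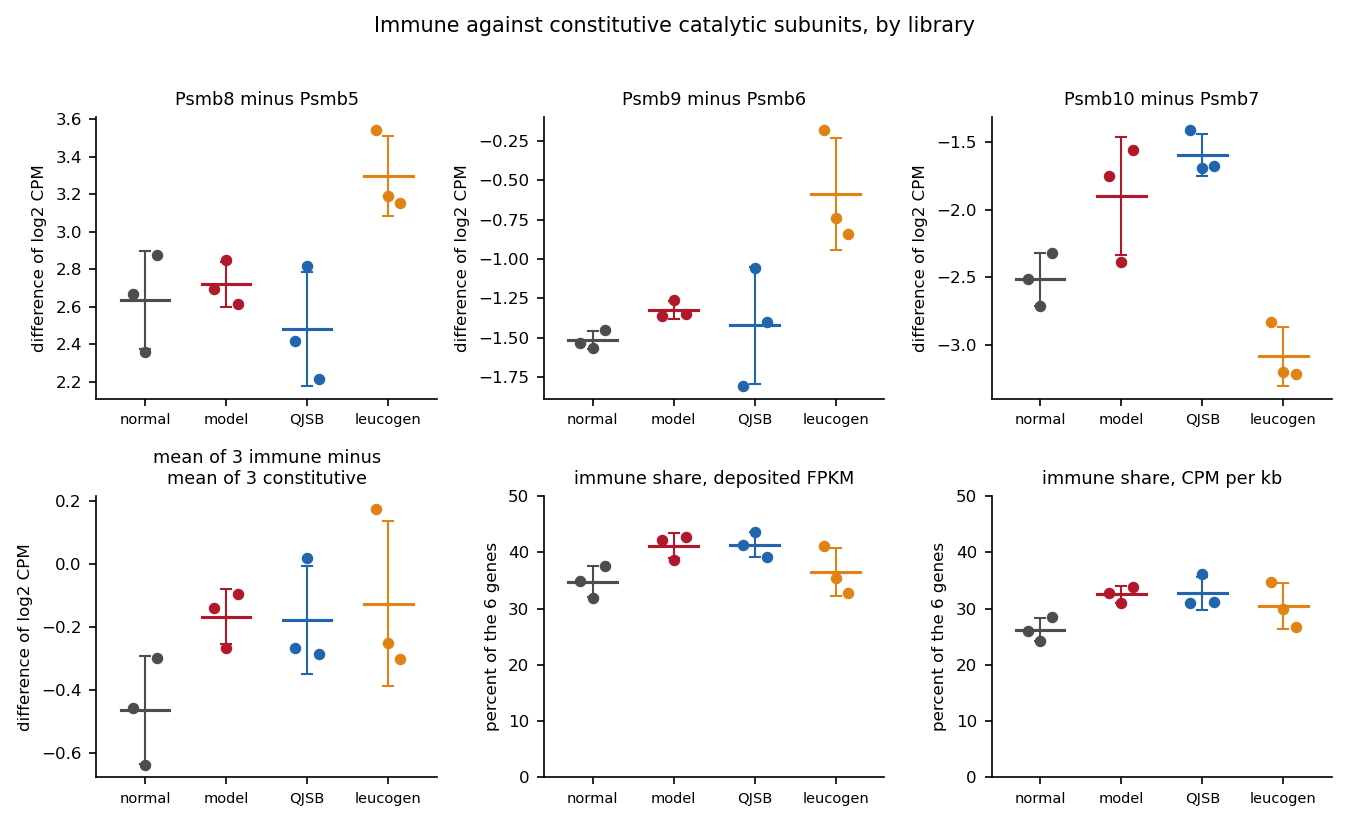
Top, difference of log2 CPM within each library (points; line, group mean; bar, SD, n = 3) for the immune and constitutive partner of each active site; bottom, the mean over the 3 pairs and the immune share of the 6 genes by deposited FPKM and by CPM per kilobase. The leucogen points are highest for the Psmb8 and Psmb9 pairs and lowest for the Psmb10 pair, and the model and QJSB points lie above the normal points in the lower panels.

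The 4 beta subunits without an active site were split. Psmb2 had 20.9, 17.8 and 19.3 CPM in normal, 34.2, 32.9 and 36.3 in model, 37.2, 39.3 and 27.2 in QJSB and 13.0, 13.6 and 12.1 in leucogen libraries, with no overlap between the leucogen group, the normal group and the other groups. It had the largest absolute change of all members in leucogen against model, -1.41 ± 0.15 (adjusted p = 0.00177), and rose by 0.84 ± 0.14 in model against normal (adjusted p = 0.00176). Psmb4 did likewise at -0.98 and 0.66, both called. Psmb1 (-0.29 and 0.21) and Psmb3 (-0.34 and 0.26) passed neither test.

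In the alpha ring, 3 of 7 subunits rose in model against normal, namely Psma5 (0.66), Psma6 (0.61) and Psma7 (0.77). Of the same 7, 3 fell in leucogen against model, Psma1 (-0.45), Psma5 (-1.02) and Psma7 (-0.50). Psma6 was 72.2, 72.6 and 65.3 CPM in normal and 79.4, 83.2 and 83.7 in leucogen libraries, which did not overlap, and it was called higher in leucogen against normal (0.25 ± 0.09, adjusted p = 0.0353), with an adjusted p of 0.0448 to 0.167 over the alternatives.

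Psma3 had the largest value of any member in QJSB against model. Its levels were 45.9, 59.0 and 38.5 CPM in normal, 63.3, 89.8 and 51.7 in model, 38.9, 40.5 and 23.4 in QJSB and 51.3, 54.0 and 56.1 in leucogen libraries. The QJSB libraries lay below all model and leucogen libraries and overlapped the normal ones. The log2 fold change of -1.01 ± 0.27 against model passed the cutoff of the study's methods, a fold over 1.5 at an unadjusted P under 0.05 in edgeR, but not the adjusted test (edgeR adjusted p = 0.767, 0.106 with the replicate number as a block). Psmc6 also passed that cutoff (-0.61 ± 0.21, edgeR adjusted p = 0.767), so 0 members were past it upwards and 2 downwards, where 1.68% and 1.4% of all genes were. The 2 became 1 without model replicate 2, QJSB replicate 2 or QJSB replicate 3. In QJSB against leucogen Psma3 was called lower (-0.67 ± 0.20, edgeR adjusted p = 0.0357), a call kept in 7 alternatives and lost in 8. It was lost without any 1 leucogen library (edgeR adjusted p = 0.0862 to 0.129). With the GC trend removed the value was -0.20 (edgeR adjusted p = 0.556).

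The ATPases of the 19S base, the ring that unfolds substrates, were lower under leucogen in all but 1 case. In leucogen against model 5 of 6 fell, by -1.21 for Psmc5, -0.99 for Psmc4, -0.89 for Psmc1, -0.71 for Psmc3 and -0.64 for Psmc2 (log2 fold changes). The same 5 were called higher in QJSB against leucogen, from 0.62 (Psmc3) to 1.33 (Psmc5). The calls of Psmc2 and Psmc3 were not kept under every alternative, with adjusted p-values of up to 0.138 and 0.0573 in leucogen against model and of up to 0.0820 and 0.267 in QJSB against leucogen. Both lost the latter call without leucogen replicate 1 or leucogen replicate 3, and Psmc3 was at 0.23 there with the GC trend removed. In model against normal only Psmc1 (0.47) and Psmc3 (0.38) were called, and without any 1 normal library neither was (adjusted p of up to 0.0983 and 0.176 over the alternatives). Psmc5 had 24.7, 27.1 and 26.5 CPM in normal, 39.7, 24.0 and 41.0 in model, 48.3, 33.5 and 33.3 in QJSB and 13.3, 18.4 and 13.2 in leucogen libraries, where every leucogen library was below all others and model replicate 2 was below the normal libraries.

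Psmc6 was the exception. Its CPM was 233, 279.7 and 191 in normal, 212, 298 and 185 in model, 172, 138 and 149 in QJSB and 223, 235 and 265 in leucogen libraries. Only the QJSB libraries were low. It was called lower in QJSB against normal (-0.60 ± 0.17, adjusted p = 0.0206) and against leucogen (-0.68 ± 0.14, adjusted p = 0.0100). With the GC trend removed, the latter turned to 0.11 (adjusted p = 0.629). In this gene G and C are 37.0% of the transcript, the lowest share of the members.

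Among the 11 non-ATPase subunits, which include receptors of ubiquitin chains and the enzyme that removes them, 7 fell in leucogen against model and 4 rose in model against normal. Psmd3 had 48.9, 45.8 and 51.3 CPM in normal, 75.0, 55.3 and 78.3 in model, 90.2, 75.4 and 56.8 in QJSB and 31.6, 40.2 and 25.5 in leucogen libraries, and Psmd2, which forms the scaffold of the base, had 98.6, 86.6 and 92.1, 147, 109 and 159, 181, 153 and 136 and 63.1, 81.9 and 66.0. In both the leucogen libraries were below all normal ones and these below all model and QJSB ones. Their log2 fold changes were -1.09 ± 0.20 and -0.97 ± 0.18 in leucogen against model (adjusted p = 0.00708 and 0.00674), and 1.17 ± 0.21 and 1.13 ± 0.16 in QJSB against leucogen (adjusted p = 0.00634 and 0.00329). Psmd7 and Psmd8 fell in leucogen against model (-0.79 and -0.73) and rose in model against normal (0.52 and 0.39). Psmd4, a ubiquitin receptor, Psmd1 and Psmd13 changed by -0.59, -0.44 and -0.49 in leucogen against model, all called, without a call in model against normal. Psmd14, the deubiquitinase of the lid, was at -0.20 in leucogen against model and 0.28 in model against normal, Psmd6 at -0.31 and 0.16, Psmd11 at -0.44 and 0.00, and Psmd12 at -0.36 and 0.06, and none of these passed either test.

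The activators and the inhibitor PI31 were split in model against normal, where Psme1 and Psme2 were called higher and Psme3 and Psmf1 lower. Psme1 and Psme2 encode the PA28 alpha and beta subunits, which are induced by interferon and lie at chr14:55578123-55581529 and chr14:55587441-55591113. Psme1 had 45.2, 44.0 and 37.1 CPM in normal, 63.9, 67.4 and 75.2 in model, 83.3, 83.4 and 57.3 in QJSB and 53.4, 57.9 and 52.5 in leucogen libraries, all normal ones below all others. It rose in all 3 cyclophosphamide groups against normal, by 0.71 ± 0.14 in model (adjusted p = 0.00382), 0.84 ± 0.18 in QJSB (adjusted p = 0.00652) and 0.40 ± 0.11 in leucogen (adjusted p = 0.0105, 0.0723 in a fit of all 12 libraries). In leucogen against model its value was -0.33 ± 0.13 (adjusted p = 0.0956), which was called at total counts (-0.50, adjusted p = 0.0182) and by limma on FPKM.

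Psme2 had 15.9, 17.1 and 14.6 CPM in normal, 19.5, 27.6 and 22.9 in model, 19.8, 19.7 and 17.9 in QJSB and 18.7, 16.2 and 19.6 in leucogen libraries. The normal libraries were below all model and QJSB libraries and overlapped the leucogen ones. It was called in model against normal alone (0.56 ± 0.18, adjusted p = 0.0339), and that call was lost with the GC trend removed (adjusted p = 0.114) and without any 1 normal library or model replicate 2 or 3 (adjusted p = 0.0505 to 0.111). Reads of Psme2 may also be counted for its intronless copy Psme2b at chr11:48945354-48946190, which had 33.9 to 44.0, 42.1 to 56.1, 29.2 to 45.3 and 35.6 to 40.0 CPM in normal, model, QJSB and leucogen libraries and was called in no comparison.

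Psme3 and Psmf1 fell in every cyclophosphamide group. Psme3, the nuclear activator PA28 gamma at chr11:101316213-101323537, had 377, 400.4 and 419.7 CPM in normal, 202, 128 and 195 in model, 219.8, 156 and 144 in QJSB and 117, 143 and 109 in leucogen libraries. Psmf1, the core inhibitor PI31 at chr2:151715812-151744186, had 85.4, 78.7 and 92.9, 40.8, 32.2 and 40.2, 43.2, 39.2 and 39.1 and 30.8, 38.8 and 27.4. No library of the treated groups reached the lowest normal one for either gene. The treated groups overlapped, except that for both genes the QJSB libraries were just above the leucogen ones. Against normal, Psme3 changed by -1.18 ± 0.18 in model (adjusted p = 0.00113), -1.19 ± 0.17 in QJSB (adjusted p = 0.00130) and -1.68 ± 0.11 in leucogen (adjusted p = 1.22e-06). For Psmf1 these were -1.18 ± 0.14 (adjusted p = 3.53e-04), -1.07 ± 0.12 (adjusted p = 3.32e-04) and -1.38 ± 0.13 (adjusted p = 1.70e-05). Neither gene was called in QJSB against model, leucogen against model or QJSB against leucogen. Psme4, the activator PA200, was called lower in QJSB (-0.41 ± 0.10, adjusted p = 0.0141) and in leucogen (-0.30 ± 0.09, adjusted p = 0.0202) against normal and stood at -0.37 ± 0.13 in model (adjusted p = 0.0515). The summed level of the 10 erythroid marker genes, 15763 to 19830.2 CPM in normal libraries and 168 to 1785, 221 to 596 and 179 to 678 CPM in model, QJSB and leucogen libraries, fell with them. So did those of 4 other lists, given as mean CPM in normal, model, QJSB and leucogen libraries. These were 2352, 213, 208 and 210 (mature B) and 750, 102, 25.6 and 16.7 (pre-B). For eosinophil genes they were 1344, 97.5, 130 and 90.4, and for proliferation genes 8123, 4275, 4490 and 4131. The part of these shifts was not tested.

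**Figure D4:**
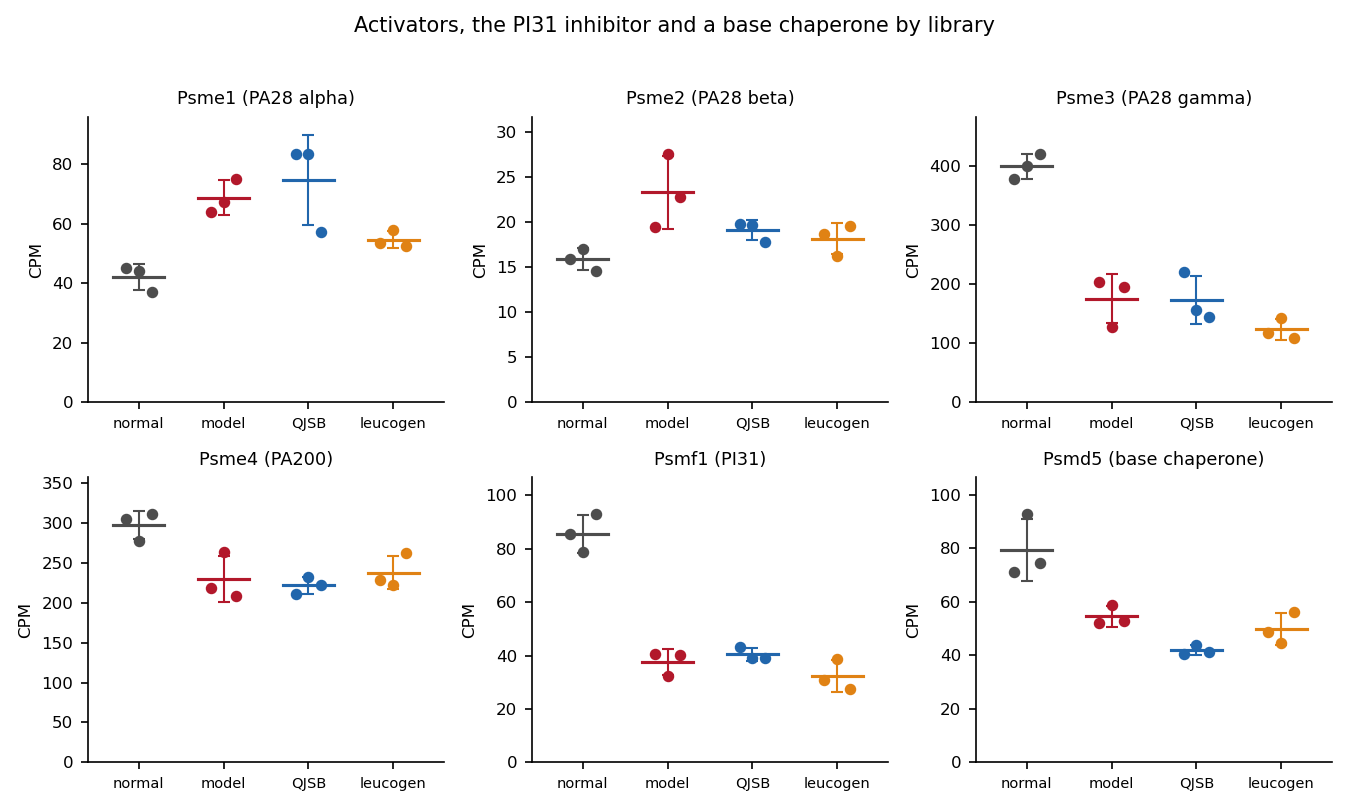
CPM of 4 activators, the inhibitor PI31 (Psmf1) and the base chaperone Psmd5 in each library (points), with the group mean (line) and SD (bar), n = 3. Psme1 is lowest in the normal group, while Psme3, Psmf1 and Psmd5 are highest there, at 377 to 420, 78.7 to 92.9 and 71.0 to 92.7 CPM.

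Assembly chaperones of the base and core also parted. Psmd5, which holds the ATPase Psmc2 during assembly, had 71.0, 92.7 and 74.6 CPM in normal, 52.0, 58.9 and 52.6 in model, 40.7, 44.0 and 41.4 in QJSB and 48.9, 44.5 and 56.1 in leucogen libraries, the normal libraries above all others. It fell by -0.54 ± 0.14 in model (adjusted p = 0.0171, 0.0882 without normal replicate 2), -0.91 ± 0.13 in QJSB (adjusted p = 0.00134) and -0.65 ± 0.13 in leucogen (adjusted p = 0.00202), each as a log2 fold change against normal. Psmd9 was called lower in leucogen against normal (-0.86) and higher in QJSB against leucogen (0.89), and Psmd10 was called in no comparison.

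Of the core chaperones, Psmg1 had 6.67, 8.44 and 6.90 CPM in normal, 12.3, 12.6 and 16.3 in model, 15.9, 11.2 and 8.16 in QJSB and 8.82, 6.82 and 7.97 in leucogen libraries. Its rise in model was 0.91 ± 0.20 (adjusted p = 0.00717), while the leucogen libraries overlapped the normal and the QJSB ones. Psmg4 had 2.97, 3.16 and 2.48, 5.54, 5.60 and 5.48, 7.09, 5.15 and 3.59 and 2.62, 2.68 and 2.69 CPM, with model and QJSB above the rest, and rose by 0.95 ± 0.23 in model (adjusted p = 0.0108) and 0.89 ± 0.31 in QJSB (adjusted p = 0.0457, over the alternatives 0.0138 to 0.139). Psmg2 had 18.5, 20.5 and 16.3, 17.8, 18.4 and 18.8, 19.7, 16.3 and 14.9 and 9.30, 10.4 and 9.41 CPM and was low in leucogen alone, at -0.90 ± 0.14 against normal (adjusted p = 4.69e-04) and -0.91 ± 0.17 against model (adjusted p = 0.00699). Psmg3 was called in no comparison, and nor were Psmc3ip and Psma8, the testis subunit alpha 4s, at 1.72 to 3.98 CPM in normal and 4.33 to 5.25 in model libraries.

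Genes that work with the proteasome were counted from hand-written lists. Of 20 partners, such as shuttle factors, deubiquitinases and the transcription factor Nfe2l1, 4 rose and 4 fell in model against normal (20% and 20%, near the 19.7% and 21.9% of all genes, median 0.25), and 1 rose and 5 fell in leucogen against model (5% and 25%, all genes 13.8% and 13.3%, median -0.28). Against normal, Ngly1, which activates Nfe2l1, fell by -0.71 ± 0.16 in model, and the deubiquitinase Uchl5 rose by 0.80 ± 0.14 in model (adjusted p = 0.00797 and 0.00276). In leucogen against model, the ubiquitin receptor Adrm1 fell by -0.68 ± 0.21 (adjusted p = 0.0383) and the segregase Vcp by -0.61 ± 0.20 (adjusted p = 0.0461), whereas Zfand5 rose by 0.67 ± 0.13 (adjusted p = 0.00842). Nfe2l1 itself rose by 1.07 ± 0.27 in leucogen against normal (adjusted p = 0.0137), as did the lid subunit Shfm1 (1.09 ± 0.11, adjusted p = 3.10e-05). QJSB against leucogen had 4 partners higher and 3 lower (20% and 15%, all genes 15.5% and 13.8%), with Ubqln2 (0.98 ± 0.19) and Adrm1 (0.73 ± 0.19) among the higher at adjusted p-values of 0.00756 and 0.0244. QJSB against normal had 5 higher and 4 lower (25% and 20%, all genes 22.1% and 23.2%), with Ngly1 (-0.85) and Zfand5 (-0.69) among the lower.

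The 11 genes of MHC class I loading, which carry proteasome peptides to the cell surface, had a median of 0.54 in model against normal, where 7 rose (63.6%, all genes 19.7%), and of -0.71 in leucogen against model, where 7 fell (63.6%, all genes 13.3%). The members that moved most were general chaperones of the endoplasmic reticulum that also load class I. Calr changed by 1.83 ± 0.21 in model against normal (adjusted p = 3.07e-04) and -1.63 ± 0.23 in leucogen against model (adjusted p = 0.00302), Pdia3 by 1.46 ± 0.14 and -0.96 ± 0.15 (adjusted p = 1.11e-04 and 0.00383), and Canx by -1.07 ± 0.15 in leucogen against model (adjusted p = 0.00280). Tapbpl, a peptide editor, rose by 0.93 ± 0.19 in model (adjusted p = 0.00456). Against normal, QJSB had 8 of 11 higher (72.7%, all genes 22.1%), with Calr at 1.96, Pdia3 at 1.42 and Tapbpl at 1.01, and leucogen 1 (9.09%, all genes 25.7%), Pdia3 (0.51 ± 0.08, adjusted p = 3.54e-04). QJSB against leucogen had 5 higher (45.5%, all genes 15.5%), among them Calr (1.73), Tapbp (1.06) and Pdia3 (0.89).

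Interferon genes were lower or not called in model marrow with 1 exception. Of 15 tested, 1 rose and 6 fell in model against normal (6.67% and 40%, all genes 19.7% and 21.9%, median -0.47), led by the antiviral genes Rsad2 (-4.76 ± 0.85, adjusted p = 0.00663), Isg15 (-3.54 ± 0.29, adjusted p = 6.07e-05) and Usp18 (-2.60 ± 0.29, adjusted p = 2.55e-04), while Psmb8, Psmb9 and Psmb10 were higher there. In QJSB 7 fell against normal (46.7%, all genes 23.2%), with Rsad2 at -5.09, Usp18 at -3.67 and Isg15 at -3.45, and in leucogen 3 rose and 5 fell (20% and 33.3%, all genes 25.7% and 26.6%), with the same 3 at -5.62, -2.62 and -2.99. In leucogen against model 3 of 14 tested rose (21.4%, all genes 13.8%), among them Oasl2 by 1.39 ± 0.27 (adjusted p = 0.00820) and the transcription factor Irf1 by 0.49 ± 0.16 (adjusted p = 0.0459). QJSB against leucogen had 3 lower (20%, all genes 13.8%), Oasl2 (-1.19), Irf1 (-0.65) and Irf9 (-0.57). No gene of the 3 lists was called in QJSB against model, where the medians were -0.04, 0.06 and -0.24 for the partners, class I loading and interferon genes.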

How the data were processed

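RNA of femoral marrow from 12 mice, 3 per group, was sequenced after removal of ribosomal RNA. The authors mapped reads with HISAT2 to mm10, and deposited whole-number read counts and FPKM for 34745 genes. The counting program, its annotation and its use of strand are not given in the sources used here, so reads of overlapping genes on opposite strands may not be separated. The headings of the deposited columns are numbered Model, Blank, Stilbene and Positive, of which only Model is also in the labels, and 0 columns were left unused. Blank was read as normal and Positive as leucogen from their meaning, and Stilbene as QJSB by elimination. The mean count that the study's supplement lists per gene was set against the mean normalized count over both groups of a comparison. With this reading they lay within 1% for 300 of 300 listed genes in each of 3 comparisons. Under any other reading at most 10 did, so the assignment rests in part on values.

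Counts were tested with edgeR 4.0.16 in R 4.3.3 (TMM, filterByExpr, robust glmQLFit, glmQLFTest) in 6 comparisons of 3 against 3 libraries, with Benjamini-Hochberg adjustment over all genes tested. Shown CPM used TMM factors of all 12 libraries, and log2 CPM a prior count of 2. Totals of 11172547 to 18545198 counts set the counting error, and libraries of a group differed by more than it in every pair. Alternatives were DESeq2 1.42.0, its size factors or total counts in edgeR, a block for the replicate number, limma 3.58.1 on log2(FPKM + 0.1), one fit of all 12 libraries, no filter or a minimum of 10 counts per library, each library left out, and a GC trend removed (added after seeing the data, GENCODE M21). For QJSB and model the deviations of same-numbered libraries correlated at 0.426, 0.123 and 0.107 over 15310 genes. For QJSB and leucogen they correlated at 0.181, 0.134 and 0.078. No label pairs animals across groups, so whether the numbers mark pairs is not known. The members and lists were chosen with earlier results of these data known. Per-library values are given for the catalytic subunits, Psme1, Psme2 and, per comparison, up to 3 further called members in each direction with the largest change. Values of listed partner, class I and interferon genes are given for up to 3 called genes, of which some are not reported here. The scripts were tested on simulated data.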

Additional observations from a re-analysis of the deposited data

How the results depend on the processing

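Of 72 fold changes of named members, their values under the alternatives kept direction and side of the threshold in 973 cases, lost the call in 65, gained it in 10 and changed sign in 32. The sign changes were values that passed no test either way, apart from Psmc6 in QJSB against leucogen, which turned from a called -0.68 to 0.11 with the GC trend removed. With that trend removed the others were -0.061 for Psmb5, -0.035 for Psmb6 and -0.046 for Psme1 in QJSB against model, 0.11 for Psmb9 in leucogen against model, 0.18 for Psmb7 in QJSB against normal, -0.082 for Psmb7 in leucogen against normal, and 0.25 for Psmb7, -0.26 for Psmb9 and -0.26 for Psme2 in QJSB against leucogen. Total counts gave -0.0042 for Psmb5 and -0.042 for Psmb6 in QJSB against model and -0.019 for Psmb7 in leucogen against normal, limma on FPKM -0.0025 for Psmb5, -0.049 for Psmb6 and -0.0017 for Psme1 in QJSB against model and -0.015 for Psmb7 in leucogen against normal, and at least 10 counts in every library -0.0018 for the last. With 1 library left out, QJSB against model ran from -0.012 to 0.11 for Psmb6, from -0.26 to 0.10 for Psmb9 and from -0.17 to 0.061 for Psmb10. Psmb7 ran from -0.20 to 0.0005 in leucogen against model and from -0.023 to 0.11 in leucogen against normal, and in QJSB against leucogen Psmb9 ran from -0.11 to 0.23 and Psme2 from -0.025 to 0.12. The cause was not tested.

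Counts of called members moved by over 1.5 times in few settings besides the libraries left out. With the GC trend removed, QJSB against normal had 12 higher and 3 lower (all genes 2744 and 3175 of 14817). QJSB against leucogen had 0 lower (all genes 992 of 14266). In QJSB against model 1 member was past the cutoff of the methods downwards (all genes 169 of 14486). One fit of all 12 libraries called 1 higher in leucogen against normal and 1 lower in QJSB against leucogen, where total counts and limma on FPKM also called 1 lower. With 1 library left out, which leaves fewer samples, the counts ran from 12 to 22 higher in model against normal, 13 to 24 lower in leucogen against model, 9 to 20 higher and 3 to 5 lower in QJSB against normal, 13 to 24 lower in leucogen against normal, 11 to 23 higher and 0 to 3 lower in QJSB against leucogen, and 1 to 3 past the cutoff of the methods downwards in QJSB against model. Over all genes the calls varied too, for example from 496 to 2153 lower in leucogen against model. In leucogen against model the median of all genes was -0.22 at total counts and -0.05 with TMM factors. There total counts had 35 members lower (all genes 3110 of 14184), and DESeq2 23 (all genes 1940 of 21089).

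The difference of immune and constitutive subunits, from the log2 of summed CPM in place of the mean of log2 CPM, was 0.48 in model against normal, 0.52 in QJSB against normal, -0.22 in leucogen against model and 0.26 in QJSB against leucogen. The latter values have the opposite sign to 0.04 and -0.05 from the mean, since the abundant Psmb6, Psmb7 and Psmb8 weigh most in a sum. With the replicate number as a block, 18 members were called higher in model against normal and 18 lower in leucogen against model. Over all genes 2609 of 14752 and 1241 of 14184 were. In QJSB against model 0 members were called, while over all genes 14 were higher and 4 lower. The block changed 3 calls of named members. Psmg4 in QJSB against normal (0.85) and Psmb5 (-0.55) and Psma6 (0.25) in leucogen against normal were no longer called. Few counts limit Psmb5, Psmg4 and Psma8, and no value of Psmb11 could be tested.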
